A study of Mus musculus with 6 samples.

Results

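Sarcomere and actomyosin genes were followed across 6 RNA-seq samples of mouse inguinal white adipose tissue, the subcutaneous fat pad of the groin. Members were taken by gene symbol: the myosin heavy and light chains, the troponins, the tropomyosins Tpm1 to Tpm4, the alpha-actinins, the myozenins, the myosin-binding proteins C, and Acta1, Actc1, Ttn, Neb, Des, Ckm, Mb and Atp2a1. Of 22564 gene rows in the deposited table, 58 were members. The symbols were chosen by name, but the set as a whole was selected on the measured scaled counts, knowing that 1 sample, cold replicate 2, stands far above the rest in muscle genes, so the height of that sample is given below as a description without a test. By where the genes are known to act, 12 members belong to fast skeletal muscle, 6 are shared by striated muscle, 16 belong to slow muscle or heart, 4 to developing or specialised muscle, 3 to smooth muscle and 10 to non-muscle cells. The other 7 are 5 genes used by several cell types (Tpm1, Tpm2, Tpm3, Des and Mb) and 2 genes placed in none of these groups (Myl10 and Mylip).

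All samples came from C57BL/6 mice by the labels (C57BL/6J males, 2 months old, in the study's description). In the cold group 3 samples came from mice kept at 4 °C for 7 days, and in the thermoneutral group 3 came from mice kept at 30 °C for 7 days. No transgene or other treatment was part of this comparison. The labels name adipocytes as the source and inguinal fat as the tissue, RNA was extracted from frozen fat tissue, and they do not say whether a sample holds 1 mouse or several, so p-values measure only the spread between these samples.

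A sarcomere is the contractile unit of striated muscle, in which thick filaments of myosin pull on thin filaments of actin. Troponin and tropomyosin on the thin filament make this pull depend on calcium, which the pump Atp2a1 returns to its store, and titin, nebulin and alpha-actinin hold the lattice in place. Fast, slow and cardiac fibres use different genes for the same part, smooth muscle has its own myosin and no troponin, and every cell uses non-muscle myosin and actinin for its shape and movement. White fat has no sarcomeres, but the inguinal pad lies close to skeletal muscle, its vessels carry smooth muscle, and brown adipocytes are known to express myoglobin, the oxygen-binding protein of muscle.

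The deposited values are FPKM and counts that had been divided by 1 factor per sample, called scaled counts here. Their totals were 17435000 to 17588800 in cold and 19276900 to 19603500 in thermoneutral samples. Cold and thermoneutral samples were set against each other in limma, on log2 values of the scaled counts with 1 added, for the 11650 genes that reached an FPKM of 1 in 3 or more samples, and a gene was called at a Benjamini-Hochberg adjusted p under 0.05. The median gene had a log2 fold change of -0.54 on this scale, so changes are also given relative to it. The adipocyte genes Adipoq and Plin1 were high in every sample (38641 to 104059 and 13586 to 33169 scaled counts), and all 6 thermogenic genes on the list used here rose in cold, with Ucp1 at 107026 to 137879 scaled counts in cold and 114 to 242 in thermoneutral samples. Thermoneutral 1 also stood apart: 5 epithelial genes (Epcam, Krt5, Krt14, Krt8 and Krt18) summed to 28382 scaled counts there and to 8.31 to 52.3 in the other 5 samples.

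Promoters of 4 genes are shown for reference, because their genes are the anchors of the results: Myh4, the myosin of the fastest fibres, Acta1, the actin of skeletal muscle, Ckm, the creatine kinase of muscle, and Mb, which moved differently from the other 3. Each is the 250 bases before the RefSeq start, 5′ to 3′ on the gene's strand, from GRCm38.p6. Capitals mark matches to the E-box CANNTG, bound by myogenic factors of the Myod1 family, to the MEF2 and CArG (serum response factor) motifs, and to TATAAA, searched on both strands.
Myh4 (chr11:67237562-67237811, plus strand): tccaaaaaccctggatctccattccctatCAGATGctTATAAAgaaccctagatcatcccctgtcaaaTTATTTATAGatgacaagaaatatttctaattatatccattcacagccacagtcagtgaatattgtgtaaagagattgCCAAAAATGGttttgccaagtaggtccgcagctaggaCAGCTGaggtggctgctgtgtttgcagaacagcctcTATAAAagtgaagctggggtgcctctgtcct
Acta1 (chr8:123894776-123895025, minus strand): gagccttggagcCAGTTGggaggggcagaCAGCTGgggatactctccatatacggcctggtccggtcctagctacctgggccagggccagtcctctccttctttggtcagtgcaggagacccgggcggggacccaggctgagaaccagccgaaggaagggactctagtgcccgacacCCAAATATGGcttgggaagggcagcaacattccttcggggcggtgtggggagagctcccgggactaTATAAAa
Ckm (chr7:19410844-19411093, plus strand): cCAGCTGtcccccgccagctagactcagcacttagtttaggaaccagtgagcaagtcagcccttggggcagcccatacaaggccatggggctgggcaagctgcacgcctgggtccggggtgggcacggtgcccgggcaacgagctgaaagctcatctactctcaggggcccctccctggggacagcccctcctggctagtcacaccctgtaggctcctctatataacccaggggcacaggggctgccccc
Mb (chr15:77022728-77022977, minus strand): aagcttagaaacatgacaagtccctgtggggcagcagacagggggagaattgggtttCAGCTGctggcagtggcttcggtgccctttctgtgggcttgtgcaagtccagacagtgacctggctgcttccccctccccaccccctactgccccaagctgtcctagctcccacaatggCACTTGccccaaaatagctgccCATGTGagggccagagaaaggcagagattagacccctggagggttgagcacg
Myh4 had matches to all 4 motifs, with a TATAAA 31 bases before the start, and 1 of its other TATAAA matches overlapped its MEF2 match. Acta1 had 2 E-boxes, 1 CArG match and 1 TATAAA. Ckm had 1 E-box and Mb had 3, and neither window held the other motifs. Of the 58 members, 51 had a promoter in the RefSeq table. An E-box was present in 10 of 12 promoters of fast and shared striated genes, a MEF2 match in 3, a CArG match in 2 and TATAAA in 4. Among all 27025 mouse promoters of this length, 66.2% held an E-box, 2.98% a MEF2 match, 1.37% a CArG match and 12.9% a TATAAA. These matches describe the letters and do not show that a factor was bound.

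The fast muscle genes were highest in cold 2 without exception among the 12 members, next highest in the thermoneutral samples, and lowest in cold 1 and cold 3 for most of them. Myh4 (chromosome 11, 67238029 to 67260446 in the GENCODE annotation of GRCm38) had 66.3, 58081 and 91.4 scaled counts in cold 1, 2 and 3 and 1461, 2889 and 547 in thermoneutral 1, 2 and 3. Atp2a1, the calcium pump of fast fibres (chromosome 7, 126445858 to 126463108), had 46.8, 33259 and 48.8 in cold and 748, 1332 and 426 in thermoneutral samples. The cold group thus spanned both the highest and the lowest values of these genes.

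The fast troponins gave the same order of samples. Tnnt3, the subunit that anchors troponin to tropomyosin, had 16.0, 22587 and 38.4 scaled counts in cold and 534, 1040 and 316 in thermoneutral samples. Tnni2, the inhibitory subunit, had 17.1, 9818 and 14.5 in cold and 222, 420 and 119 in thermoneutral samples. Tnnc2, the calcium-binding subunit, had 28.6, 11356 and 10.4 in cold and 237, 575 and 187 in thermoneutral samples. In each of the 3 genes thermoneutral 2 was the highest sample after cold 2, and thermoneutral 3 was the lowest of its group.

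Mylpf, the regulatory light chain of fast myosin, had 33.1, 16305 and 68.5 scaled counts in cold and 414, 714 and 352 in thermoneutral samples. Actn3, the alpha-actinin of fast fibres, had 9.14, 11436 and 27.0 in cold and 243, 415 and 124 in thermoneutral samples. The light chain gene Myl1 departed from this pattern: it had 1407, 20482 and 1107 in cold and 892, 1985 and 1419 in thermoneutral samples. Outside cold 2 the groups overlapped for Myl1, and cold 1 and cold 3 held 6.87% and 5.41% of the cold 2 value where Mylpf held 0.203% and 0.42%. The remaining fast members, the thick-filament protein Mybpc2, the Z-disc protein Myoz1 and the myosins Myh1 and Myh2, had 904 to 7884 scaled counts in cold 2 and at most 349 elsewhere.

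**Figure D1:**
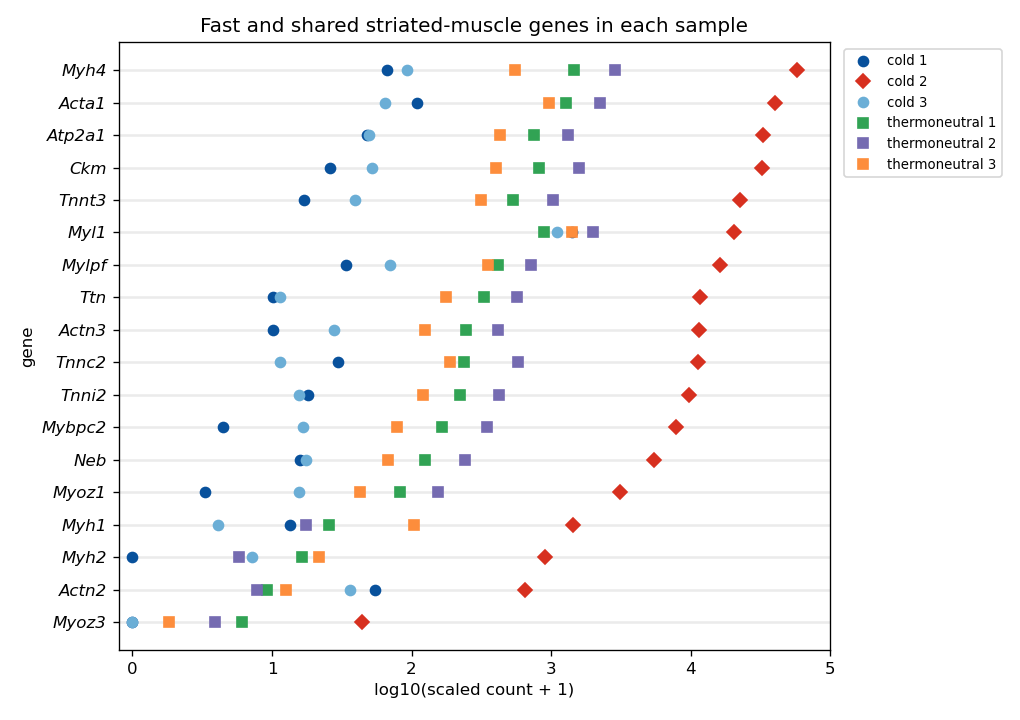
Scaled counts of the 18 fast and shared striated-muscle genes, as log10 of the scaled count plus 1 (horizontal axis), with 1 point per sample and genes ordered by cold 2. Cold 2 is the rightmost point in every row, thermoneutral samples form a middle band for most genes, and Myl1 and Actn2 depart from the low position of cold 1 and cold 3.

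The genes shared by all striated muscle followed the fast genes, apart from Actn2. Acta1, the actin of the skeletal thin filament (chromosome 8, 123891769 to 123894751), had 109, 40274 and 63.4 scaled counts in cold and 1283, 2230 and 959 in thermoneutral samples. Ckm, the creatine kinase that buffers ATP in muscle, had 25.1, 32334 and 50.9 in cold and 813, 1591 and 399 in thermoneutral samples. Ttn, the giant spring that spans the sarcomere, had 9.14, 11727 and 10.4 in cold and 331, 572 and 175 in thermoneutral samples. These 3 genes had no overlap between cold 1 and cold 3 on one side and the thermoneutral samples on the other. With cold 2 left out, 46.6% of all genes were lower in cold in this way.

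Neb, the protein that runs along the thin filament, had 14.9, 5434 and 16.6 scaled counts in cold and 123, 239 and 66.3 in thermoneutral samples. Myoz3 of the Z-disc was low throughout, with 43.2 in cold 2 and at most 5.10 elsewhere. Actn2, the alpha-actinin of the Z-disc in all striated fibres, had 53.7, 655 and 35.3 in cold and 8.16, 6.77 and 11.6 in thermoneutral samples. Cold 1 and cold 3 thus lay above the thermoneutral samples, as they did for 9.08% of all genes.

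Over the 18 fast and shared striated genes, the median member stood at 0.127% of its cold 2 value in cold 1 and at 0.184% in cold 3. The corresponding medians were 2.32%, 4.52% and 1.45% in thermoneutral 1, 2 and 3. All 38 skeletal and cardiac members held 1.65% of the scaled counts of cold 2, 0.0121% and 0.0101% of those of cold 1 and cold 3, and 0.0402%, 0.0761% and 0.0284% of those of the thermoneutral samples. Leaving out Myl1, the shares of cold 1 and cold 3 were 0.00402% and 0.00382%. In bulk tissue, fewer cells of a type and less RNA per cell cannot be told apart.

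Over the whole table, 180 of 11490 genes with at least 50 scaled counts in cold 2 were at least 5 times higher there than in any other sample (1.57%). Of the 45 members above that minimum, 26 were among them: 12 fast, 5 shared striated, 6 slow or cardiac and 3 used by several cell types. These counts describe the sample for which the set was chosen. Just inside the limit were Tnnt1 at 5.68 times and Des at 6.88 times, and just outside were Mb at 4.78 times and Myl3 at 4.04 times. None of the 13 smooth muscle and non-muscle members was highest in cold 2. Genes of B cells were also high in that sample: 6 of them (Ms4a1, Cd79a, Cd79b, Cd22, Pax5 and Cr2), chosen after their values had been seen, summed to 1742 scaled counts in cold 2, 384 and 87.2 in cold 1 and cold 3 and 42.0 to 70.5 in thermoneutral samples, and none was at 0 in cold 2. Their part in the results was not tested.

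With all 6 samples, none of the 10 tested fast genes and none of the 3 tested shared striated genes was called, where 6.24% of all tested genes were called higher and 35.2% lower. Cold 2 sets the standard errors of these genes: Myh4 had a log2 fold change of -0.89 with a standard error (SE) of 2.54 (adjusted p = 0.78 from limma), and Ckm -1.19 with 2.59 (adjusted p = 0.72). Without cold 2, which leaves 2 cold samples against 3, 9 of the 10 fast genes and all 3 shared striated genes were lower in cold, where 22.6% of all tested genes were called lower and 4.27% higher. Of those 13 genes, 5 (Actn3, Mybpc2, Myh4, Myoz1 and Neb) had an FPKM under 1 in both cold 1 and cold 3 and so passed the filter only through cold 2 and the thermoneutral samples, where they were high, so that their calls carry no weight of their own. Of the other 8, 7 were lower and Myl1 was not called. Among these 7, Ckm and Atp2a1 had an FPKM under 1 in cold 1, and Tnnc2 had one under 1 in cold 3. Ckm, Atp2a1 and Tnnc2 thus also needed the thermoneutral samples to pass the filter, so that their calls carry no weight of their own either. With the filter set aside, cold 1 and cold 3 lay below every thermoneutral sample for 15 of all 18 fast and shared striated members, where 46.6% of genes did so and 9.08% lay above. The exceptions were Myl1 and Myh2, which overlapped, and Actn2, which was higher.

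Sizes were large next to the median gene, which was at -0.59 in this comparison. Acta1 was lower, with -4.06 on the log2 scale (SE 0.43, adjusted p = 0.012 from limma without cold 2). Ckm, which needed the thermoneutral samples to pass the filter, had -4.45 (SE 0.63) in the same fit. Myh4, one of the 5 genes that passed the filter only in that way, had -4.07 (SE 0.68). Tnnt3 had -4.44, the largest among the fast genes, and Mylpf -3.27, the smallest of the 9 that were called. Myl1 had -0.12 (adjusted p = 0.80). With each sample also centred on its median gene, a check added after seeing the data, the same 7 of those other 8 genes (Tnnt3, Tnni2, Tnnc2, Mylpf, Atp2a1, Acta1 and Ckm) were lower, where 2.32% of all genes were lower and 6.88% higher. Among them Tnnc2, Atp2a1 and Ckm needed the thermoneutral samples to pass the filter. With cold 2 included no direction passed the test for these 7 genes. Without it the calls remain a description, because the set was chosen on these values for the height of the sample left out. With 2 samples against 3 an exact permutation p cannot go below 0.1. All 7 genes also had the same order of thermoneutral samples, so they are not 7 separate results.

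**Figure D2:**
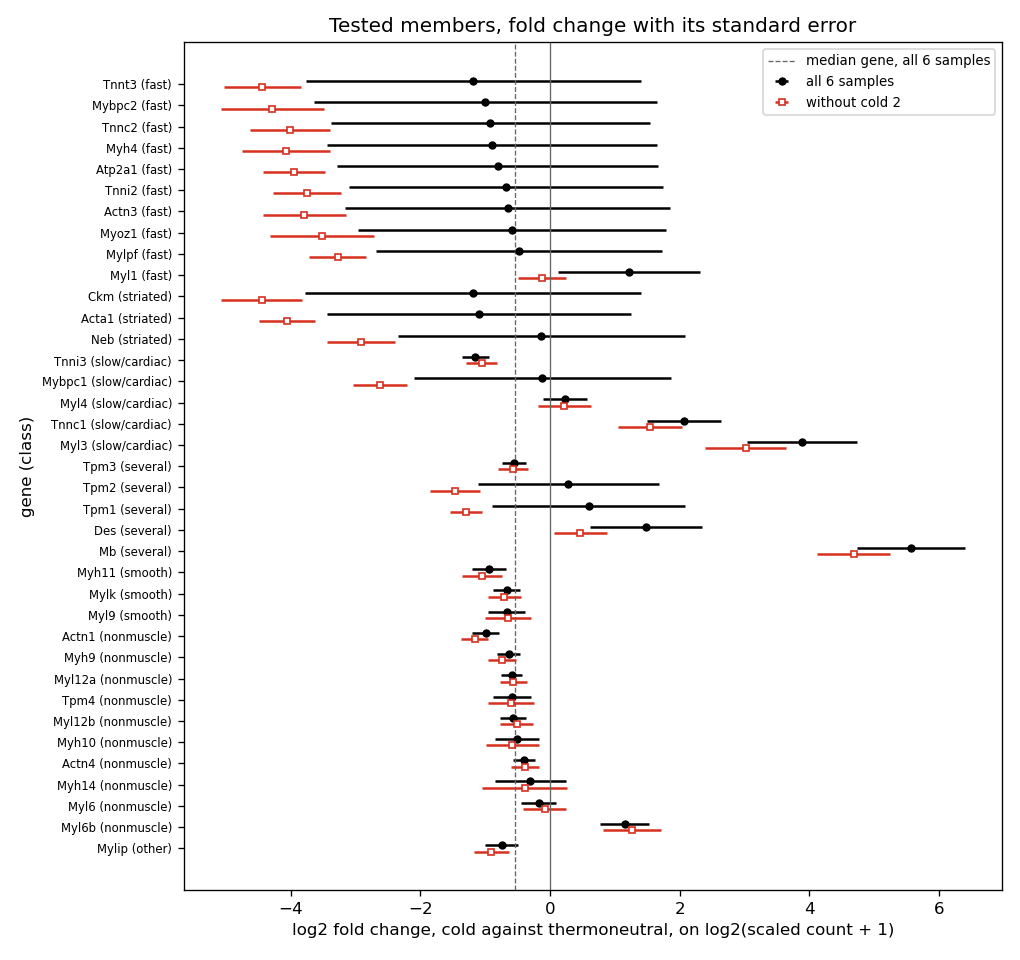
Log2 fold changes of the 37 tested members, cold against thermoneutral, on log2 of the scaled count plus 1, with bars for the standard error. Filled points use all 6 samples and open squares leave out cold 2, the dashed line marks the median gene (-0.54), and the fast and shared striated genes other than Myl1 move to between -2.92 and -4.45 when cold 2 is left out.

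Fibre type was read from the make-up of 4 myosin heavy chain genes per length: Myh4 (type IIb, the fastest), Myh1 (type IIx), Myh2 (type IIa) and Myh7 (type I, slow). Myh4 made up 95.8% of their summed FPKM in cold 2, with Myh1 at 2.35%, Myh2 at 1.47% and Myh7 at 0.331%. In the thermoneutral samples Myh4 made up 97.3%, 99.3% and 81.6%. All samples were therefore mostly Myh4, and thermoneutral 3 had a larger part of Myh1 than the other 2 of its group. The fast myosin genes are near-identical copies, and reads could be split between them in counting, so these shares are uncertain to that extent.

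Myh1 made up 1.64%, 0.571% and 15.3% of the FPKM in thermoneutral 1, 2 and 3. On scaled counts divided by the value of 1 fragment, the share in thermoneutral 3 was 15.4% (95% Wilson interval 13.1% to 18.1%) and in thermoneutral 2 it was 0.565% (0.353% to 0.904%), so that the difference between these samples was larger than counting error, which is all that the intervals cover. Cold 1 had 15.9% Myh1 and cold 3 had 3.08%, on a summed FPKM of 0.607 and 0.776. At that depth the interval for cold 1 ran from 9.14% to 26.3% and that for cold 3 from 1.06% to 8.70%.

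**Figure D3:**
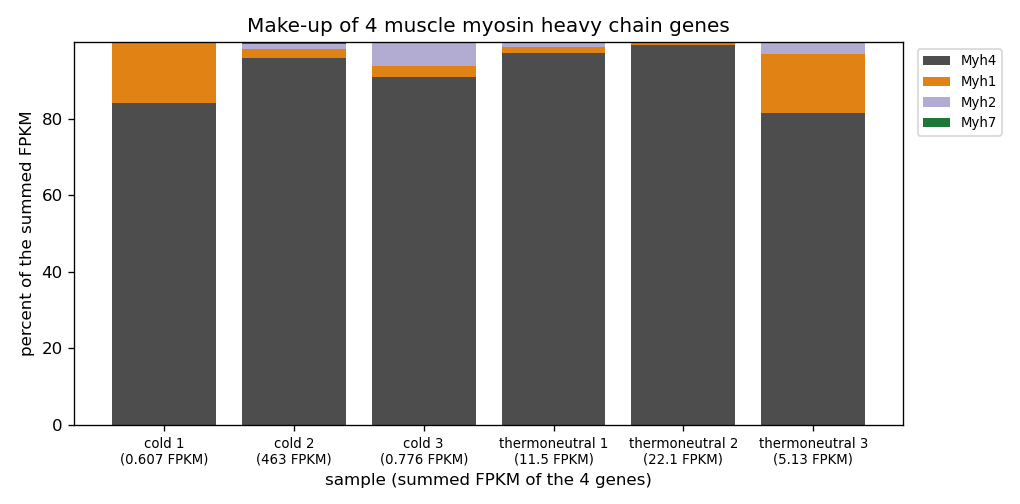
Percent of the summed FPKM of Myh4, Myh1, Myh2 and Myh7 held by each gene (bars from 0 to 100) in each sample, with the summed FPKM under each bar. Myh4 is the largest part of every bar, from 81.6% to 99.3%, and Myh1 is widest in cold 1 and thermoneutral 3, at 15.9% and 15.3%.

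The troponins gave a second reading. Slow troponin genes (Tnnc1, Tnni1 and Tnnt1) made up 0.422% of the summed FPKM of fast and slow troponins in cold 2 and 1.34%, 1.11% and 3.15% in thermoneutral 1, 2 and 3. In cold 1 and cold 3 they made up 35.0% and 29.2%, with fast troponin FPKM of only 5.20 and 4.67 against 3116 in cold 2. The slow part in cold 1 and cold 3 was mainly Tnnc1, at an FPKM of 2.27 and 1.78, while Tnnt1 was at 0.24 and 0.148.

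Per length, slow and cardiac members were mostly below the fast ones: in cold 2 their highest FPKM was 21.3 (Mybpc1), where the fast members had 6.82 (Myh2) to 1455 (Myl1). Of 16, 6 were at least 5 times higher in cold 2 than in any other sample. That held for 1.57% of all genes with at least 50 scaled counts in cold 2. Mybpc1, the myosin-binding protein of slow fibres, had 6.85, 1155 and 4.15 scaled counts in cold and 36.7, 25.2 and 59.7 in thermoneutral samples. Myh7, the slow and ventricular myosin, had 207 in cold 2, 1.02 in thermoneutral 1 and 0 in the other 4 samples. Its light chain partner Myl2 had 171 in cold 2 and at most 3.87 elsewhere. Myh7 and Myl2 were thus near the floor outside cold 2.

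Actc1, the cardiac actin that skeletal muscle also makes during development, had 308 scaled counts in cold 2 and at most 12.4 elsewhere. Myoz2, a Z-disc protein of slow and cardiac fibres, had 153 in cold 2 and 0 in the other 5 samples. Some genes that mark the heart were near or at 0. Myl7, the atrial light chain, was listed at 0 in all 6 samples. Myh6, the cardiac alpha myosin, reached 2.11 in cold 2 and was 0 elsewhere, and Tnnt2 reached 12.7. The hormone genes Nppa and Nppb and the heart factor Nkx2-5 were also at 0 in all samples. Other genes of the same heart list were not: Tbx5 had 41.8 to 96.2 scaled counts and Hcn4 4.57 to 32.3 over the 6 samples. Ryr2 reached 19.0 and Gata4 2.11, both in cold 2. The 4 developmental or specialised myosins were low, with Myh8 and Myh3 at 14.8 and 10.5 in cold 2 and Myh13 and Myh15 at 2.28 or less in any sample. Of the 5 tested slow and cardiac genes, Mybpc1 alone was at least 5 times higher in cold 2, and without that sample it had a log2 fold change of -2.62. With an FPKM of 0.317 and 0.113 in cold 1 and cold 3 it passed the filter only through cold 2 and thermoneutral samples, so no weight is put on its test.

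Mb and a few genes of slow muscle were higher in all 3 cold samples. Mb (chromosome 15, 77015487 to 77050670) had 705, 3370 and 408 scaled counts in cold and 18.4, 10.6 and 39.8 in thermoneutral samples. The groups thus did not overlap, where 8.04% of all genes were higher in cold without overlap. On the log2 scale it rose by 5.56 (SE 0.83, adjusted p = 0.0078 from limma). Without cold 2 it rose by 4.68 (SE 0.56, adjusted p = 0.014), and its adjusted p was at most 0.033 when any 1 sample was left out. Mb too needed cold samples to pass the filter, since its FPKM in thermoneutral 2 was 0.589. Fitted without the filter, its adjusted p was 0.024 from limma.

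Myl3, the light chain of slow and ventricular myosin, had 40.0, 161 and 16.6 scaled counts in cold and 1.02, 5.81 and 1.66 in thermoneutral samples. It rose by 3.88 (SE 0.85, adjusted p = 0.017), and by 3.02 without cold 2 (adjusted p = 0.029), but did not pass without thermoneutral 3 (adjusted p = 0.058). Tnnc1, the calcium-binding troponin of slow and cardiac fibres, had 28.6, 75.9 and 21.8 in cold and 4.08, 7.74 and 14.9 in thermoneutral samples. It rose by 2.07 (SE 0.57, adjusted p = 0.031) with all samples, and had 1.54 (adjusted p = 0.062) without cold 2, and its adjusted p was 0.045 to 0.084 when any 1 sample was left out. Neither gene overlapped between the groups, where 8.04% of all genes were higher in cold without overlap, and both had low counts. Myl3 had an FPKM under 1 in every thermoneutral sample, and Tnnc1 reached 1 only in thermoneutral 3. Both thus passed the filter only with the cold samples, where they were high, so no weight is put on their tests.

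Actn2 did not pass the filter on FPKM. Fitted without the filter, it had 3.50 on the log2 scale (SE 1.13, adjusted p = 0.078 from limma), although its 3 cold samples all lay above its 3 thermoneutral samples. Of the 58 members, 5 were higher in cold without overlap (Mb, Actn2, Myl3, Tnnc1 and Myl6b), where 8.04% of all genes were, and 11 were lower without overlap, where 40.4% of all genes were. Of the 5 tested slow and cardiac genes, 2 rose with all samples and 1 was lower, where 6.24% of all tested genes were called higher and 35.2% lower. The third call was Tnni3, the cardiac inhibitory troponin, with 10.3, 7.38 and 8.31 scaled counts in cold and 23.5, 21.3 and 16.6 in the thermoneutral ones. Its change was -1.15 on the log2 scale (adjusted p = 0.011). With an FPKM under 1 in cold 1 and cold 2, it passed the filter only with the thermoneutral samples, where it was high, so no weight is put on its test. Relative to the median gene its change was -0.61 (adjusted p = 0.13 after median centring). Myl4, an atrial and embryonic light chain, had 96.6 to 134 in cold and 60.2 to 147 in thermoneutral samples, which overlapped.

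The ratio to Ckm shows which members kept pace with the muscle genes across samples. The FPKM of Mb was 15.2% of that of Ckm in cold 2 and 3.53%, 1.04% and 14.5% in thermoneutral 1, 2 and 3, against 4263% in cold 1 and 1162% in cold 3. Actn2 was 0.888% of Ckm in cold 2, 0.193% to 1.32% in thermoneutral samples, and 97.0% and 30.4% in cold 1 and cold 3. The fast genes differed among themselves in this ratio. Tnnt3 kept to between 105% and 151% of Ckm in all 6 samples, and Mylpf was at 105% in cold 2, 95.6% to 183% in thermoneutral samples and 406% and 281% in cold 1 and cold 3. Myl1 was at 127% in cold 2, 223% to 723% in thermoneutral samples and 11302% and 4525% in cold 1 and cold 3. The ratio was thus highest in cold 1 and cold 3 for Mb, Actn2 and Myl1 alike, and does not set Mb and Actn2 apart from every fast gene.

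**Figure D4:**
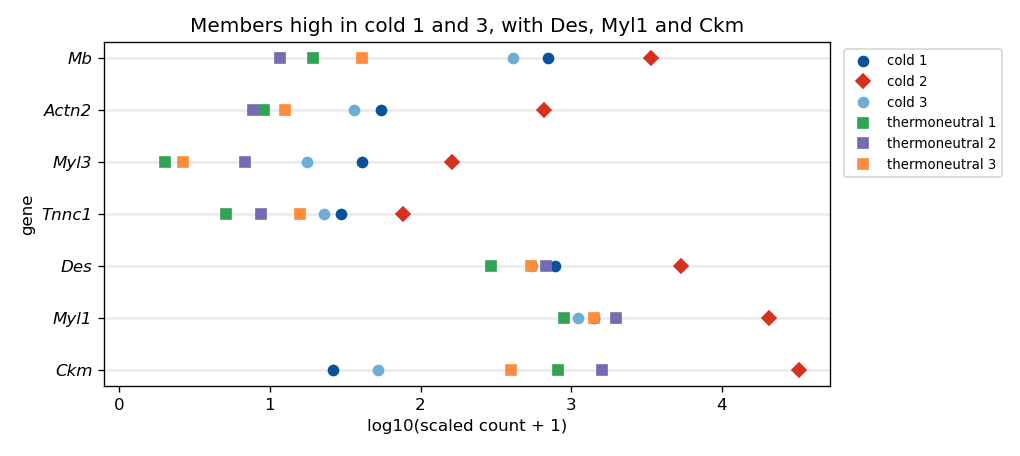
Scaled counts of Mb, Actn2, Myl3, Tnnc1, Des, Myl1 and Ckm as log10 of the scaled count plus 1 (horizontal axis), with 1 point per sample. For Mb, Actn2, Myl3 and Tnnc1 all 3 cold samples lie to the right of the thermoneutral samples, Des and Myl1 overlap outside cold 2, and for Ckm cold 1 and cold 3 lie to the left.

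Other genes shared by muscle and brown fat were set beside Mb, from a list of 6 genes known from both tissues. Of 5 tested, 4 rose, where 6.24% of all tested genes were called higher. They were Fabp3, a fatty acid-binding protein of muscle, heart and brown fat, and Cox7a1 and Cox8b, subunits of cytochrome oxidase. The last was Cpt1b, which carries fatty acids into mitochondria. All 4 also rose without cold 2 (log2 fold changes of 9.19, 6.40, 3.98 and 5.92), where 4.27% of all tested genes were called higher. Cox8b had 20692, 11238 and 10852 scaled counts in cold, so that cold 2 was not the highest sample, and the same held for the other 3. In contrast Cox6a2, another cytochrome oxidase subunit of muscle, had 10.3, 905 and 8.31 in cold and 11.6 to 24.2 in thermoneutral samples, and Ckmt2, the mitochondrial creatine kinase of muscle, had 0, 1232 and 5.19 in cold and 13.3 to 18.4 in thermoneutral samples. Mb lay between these patterns, highest in cold 2 and high in the other cold samples as well.

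Members used by several cell types mixed the patterns. Des, the intermediate filament of all muscle cells, had 783, 5382 and 546 scaled counts in cold and 292, 678 and 536 in thermoneutral samples. It had a log2 fold change of 1.48 (adjusted p = 0.19) with all samples and 0.46 (adjusted p = 0.39) without cold 2. Outside cold 2 its groups overlapped.

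Tpm1, which is spliced into muscle and non-muscle forms, had 590, 32333 and 687 scaled counts in cold and 1535, 1928 and 1285 in thermoneutral samples. Tpm2, a tropomyosin of slow and smooth muscle, had 328, 9368 and 182 in cold and 921, 688 and 489 in thermoneutral samples. Neither passed the test with all samples, at log2 fold changes of 0.60 and 0.28. Without cold 2 the direction turned and both were lower in cold, by -1.29 (adjusted p = 0.027) and -1.47 (adjusted p = 0.042), and after median centring of those 5 samples neither passed (adjusted p = 0.13 and 0.23). Tpm3, used in slow fibres and in non-muscle cells, had 2244, 2119 and 1863 in cold and 2556, 3337 and 3310 in thermoneutral samples, giving -0.56 on the log2 scale (adjusted p = 0.048), which was -0.01 relative to the median gene.

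The tropomyosin and actinin families changed make-up with the sample. Per length, Tpm1 was 79.4% of the summed tropomyosin FPKM in cold 2 and 12.9% to 28.8% in the other samples, where Tpm3 and Tpm4 together were the larger part. Among the alpha-actinins, the fast-fibre gene Actn3 was 67.8% of the FPKM in cold 2, 0.222% and 0.85% in cold 1 and cold 3 and 2.33% to 7.68% in thermoneutral samples. The non-muscle gene Actn4 was 27.0% in cold 2 and at least 86.3% elsewhere. The level of Actn4 in cold 2 was close to that of the other cold samples, at 6219, 5997 and 6336 scaled counts in cold 1, 2 and 3. It was the lowest of all 6 samples, with 9702, 7362 and 7695 in thermoneutral 1, 2 and 3.

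Smooth muscle and non-muscle members did not share the height of cold 2. Of 13 tested, 1 was higher and 5 lower in cold, where 6.24% of all genes were called higher and 35.2% lower. After centring each sample on its median gene, 1 was higher and none lower, where 10.3% of all genes were higher and 5.35% lower. Thus none of the 5 falls passed once the shift of the median gene was taken out.

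Myh11, the myosin of smooth muscle (chromosome 16, 14194535 to 14291372), had 358, 460 and 372 scaled counts in cold and 528, 884 and 926 in thermoneutral samples. It was lower, with -0.94 on the log2 scale (SE 0.26, adjusted p = 0.031 from limma), or -0.40 relative to the median gene (adjusted p = 0.29 after centring). Mylk, the kinase that switches smooth muscle myosin on, had 809, 948 and 971 in cold and 1128, 1631 and 1634 in thermoneutral samples, with -0.67 (adjusted p = 0.042), or -0.13 relative to the median gene. Myl9, the regulatory light chain of smooth muscle, had 825, 692 and 622 in cold and 752, 1466 and 1286 in thermoneutral samples and did not pass (adjusted p = 0.098). In all 3 genes thermoneutral 1 was the lowest of its group.

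Among non-muscle members Actn1, which crosslinks actin at adhesions, had 255, 391 and 297 scaled counts in cold and 669, 546 and 640 in thermoneutral samples, with -0.99 on the log2 scale (SE 0.21, adjusted p = 0.016), or -0.45 relative to the median gene. Myh9, the main non-muscle myosin heavy chain, had 2374, 3286 and 2980 in cold and 4239, 4351 and 4732 in thermoneutral samples, with -0.64 (adjusted p = 0.033). Myl12a, its regulatory light chain, had 3219, 2815 and 2680 in cold and 4044, 4728 and 4333 in thermoneutral samples, with -0.59 (adjusted p = 0.030). The groups did not overlap for any of these 3 genes, where 40.4% of all genes were lower in cold without overlap. Relative to the median gene Myh9 and Myl12a were at -0.09 and -0.05. None of the falls of Actn1, Myh9, Myl12a, Myh11 and Mylk passed in every fit with 1 sample left out. Their adjusted p reached 0.061, 0.11, 0.11, 0.10 and 0.13, in each case without thermoneutral 2 or 3, and none of them passed without cold 3.

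Myl6b, a light chain of non-muscle and slow muscle myosin, was the 1 non-muscle member that rose: it had 361, 267 and 313 scaled counts in cold and 76.5, 191 and 186 in thermoneutral samples. On the log2 scale the rise was 1.15 (SE 0.38, adjusted p = 0.048), or 1.69 relative to the median gene (adjusted p = 0.029 after centring). Without cold 2 it had 1.26 (adjusted p = 0.077), it passed with 1 sample left out only when that was thermoneutral 1 (adjusted p = 0.021), and with thermoneutral 1 and cold 2 both left out it had 0.83 (adjusted p = 0.021). It lies beside Myl6, the more abundant light chain, which had 7381 to 11625 in cold and 7282 to 11507 in thermoneutral samples.

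Thermoneutral 1 stood apart in several non-muscle members. It had 6155 scaled counts of Tpm4 where the other 2 thermoneutral samples had 3329 and 3016, and 450 of Myh14 where they had 104 and 118. Myh14 is a non-muscle myosin found in epithelia, and this sample was also the one with high epithelial genes, among them Krt14 at 22333 scaled counts against at most 38.2 elsewhere and Epcam at 2520 against at most 12.7. In what measure epithelial RNA set the values of Tpm4 and Myh14 was not tested. With thermoneutral 1 left out, 8 of the 13 smooth and non-muscle genes were lower and 1 was higher, where 44.1% of all genes were lower and 8.01% higher. With centring of those 5 samples 1 was lower (Myh11) and 2 were higher (Myl6b and Myh14), where 10.7% of all genes were lower and 14.5% higher.

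**Figure D5:**
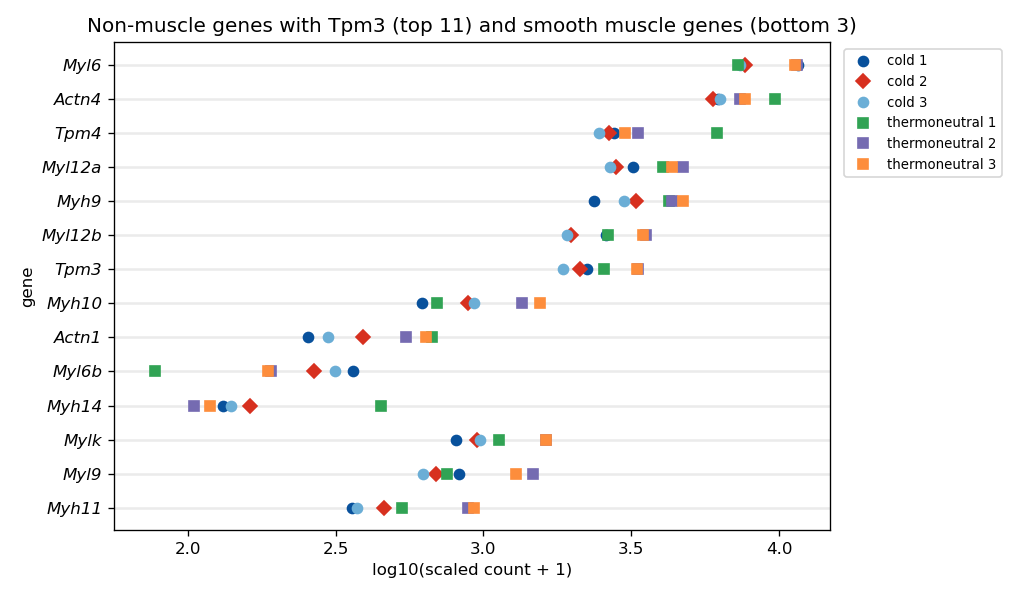
Scaled counts of 10 non-muscle genes and Tpm3 (upper 11 rows) and of 3 smooth muscle genes (lower 3 rows), as log10 of the scaled count plus 1 on an axis that does not start at 0, with 1 point per sample. Cold 2 lies among the other cold samples in these rows, and thermoneutral 1 is apart for Tpm4, Myh14 and Myl6b.

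Lists of smooth muscle, pericyte and cytoskeletal genes were read beside these members. Of 5 tested smooth muscle genes, 1 was lower (Acta2, the smooth muscle actin, at a log2 fold change of -1.03), and of 7 pericyte genes 2 were lower (Mcam and Notch3). Of 10 cytoskeletal genes 2 were lower (Actg1, a non-muscle actin, and Flna, a filamin). As shares, these counts all lie below the 35.2% of all genes called lower. After centring on the median gene none of these 3 lists had a lower gene, and 1 pericyte gene was higher. The median log2 fold changes were -0.78, -0.62 and -0.73, beside -0.54 for all genes.

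Genes that work with the sarcomere were high with it in cold 2. Of 19 genes of the Z-disc, the M-band and sarcomere assembly, 17 were at least 5 times higher in cold 2 than in any other sample. That held for 1.57% of all genes with at least 50 scaled counts in cold 2. As for the members, these counts describe the sample for which the set was chosen. Ldb3, a Z-disc scaffold, had 61.7, 2876 and 63.4 scaled counts in cold and 175, 224 and 177 in thermoneutral samples. Tcap, which caps titin, had 1.14, 2250 and 2.08 in cold and 34.7, 57.1 and 16.6 in thermoneutral samples. The 4 tested genes of this list that were lower without cold 2 (Tcap, Ldb3, Flnc and Smyd1) all had an FPKM under 1 in cold 1 and cold 3 and passed the filter only through the samples where they were high. None of the other 3 tested was lower, where 22.6% of all genes were.

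Of 13 genes that couple excitation to contraction, 8 were at least 5 times higher in cold 2, beside the same 1.57% of all genes. Pvalb, the calcium buffer of fast fibres, had 21.7, 18460 and 14.5 scaled counts in cold and 415, 808 and 296 in thermoneutral samples, and Casq1, the calcium store protein of fast fibres, had 10.3, 5500 and 15.6 in cold and 143, 222 and 128 in thermoneutral samples. Atp2a2, the calcium pump of slow fibres, heart and many other cells, had 538, 2710 and 3352 in cold and 2503 to 4056 in thermoneutral samples. Its high value was thus not in cold 2. Sln, which regulates the pump, was at 2.11 or less in every sample. Of 7 genes of muscle energy supply, 5 were at least 5 times higher in cold 2, again beside 1.57% of all genes. Among them was the glycogen phosphorylase Pygm at 13110 against at most 691 elsewhere. The counts of these lists too describe the sample for which the set was chosen.

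Genes of muscle precursors and of the nerve contact had low counts, also in cold 2. Of 11 myogenic genes, 6 were at least 5 times higher in cold 2, counted with no minimum of scaled counts. Among these 6, Myog, Vgll2, Pax7 and Myf5 had 14.8, 13.7, 6.33 and 3.16 there. They were thus under the 50 scaled counts required for the 1.57% of all genes. Myf6, the factor kept in mature fibres, had 131 scaled counts in cold 2 and at most 4.84 elsewhere. Pax7, of satellite cells, had 6.33 in cold 2 and 0 elsewhere, and Myod1 and Myog reached 10.5 and 14.8 in cold 2. Of 9 genes of the neuromuscular junction, 2 were at least 5 times higher in cold 2 on the same count. These were Chrna1 and Chrne, at 35.9 and 13.7 scaled counts there, also under 50. The receptor subunits Chrnd and Chrng were at 0 in all samples. No gene of the heart list passed the filter, with 3 of its 7 genes at 0 in every sample.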

How the data were processed

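Inguinal fat RNA of 3 cold and 3 thermoneutral samples was sequenced by the authors from TruSeq libraries on a NovaSeq instrument, with low-count genes removed and TMM and CPM described. The submitters' processing notes name Bowtie 0.12.2, mm8 and mm10 without roles, and the RNA-seq aligner is not given in the sources used here. Gene positions match GRCm38. The deposited count columns are a signal: the authors divided fragment counts by 1 factor per sample, and 93.9% to 94.7% of values under 20 steps were whole multiples of 1 step (within 0.02 of a step), short of the 95% needed to recover reads, so tests of raw counts were not run. The deposited FPKM values, per the file headers, are per length and library size. Dividing by the step gives an estimated 15262000 to 23636600 fragments per sample.

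The test was that of limma 3.58.1, run under R 4.3.3 with neither trend nor robust fitting, on log2(scaled count + 1), for genes reaching an FPKM of 1 in 3 or more samples, with Benjamini-Hochberg adjustment over all 11650. Of 79 symbols with several rows the highest row was used. Per-sample values are given for up to 8 members of a class with the highest mean FPKM and for called smooth, non-muscle and shared members; other named genes come from the lists or were chosen after their values were seen. Members and lists were chosen with earlier results of these data known. Alternatives covered the unit, pseudocount, filter, scaling, replicate block, limma options and each sample left out. With 3 samples against 3 an exact permutation p cannot go below 0.1, and the same holds for 2 against 3. Python 3.11.15 and pandas 2.3.3 read the tables.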

Additional observations from a re-analysis of the deposited data

How the results depend on the processing

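With all 6 samples and the settings of the report, 4 of 37 tested members were higher and 7 lower in cold. Without the filter 2 were higher and 2 lower, with median centring there were 4 and 0, and with quantile normalization 4 and 1. Leaving out 1 sample at a time gave 2 to 3 higher and 1 to 17 lower, the 17 without cold 2, and 11 without thermoneutral 1. For the 13 smooth and non-muscle members (1 higher and 5 lower) the counts were 0 and 1 without the filter, 1 and 0 after centring, 1 and 0 after quantile normalization, and 0 to 1 and 0 to 8 with 1 sample left out. For the 18 tested skeletal and cardiac members (2 higher and 1 lower) they were 1 and 1 without the filter, 2 and 0 after centring, 2 and 0 with trend and robust on, and 1 to 2 and 1 to 14 with 1 sample left out, the 14 without cold 2.

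A further 3 alternatives were chosen after seeing the data. Median centring with cold 2 left out gave 2 higher and 12 lower members, 0 and 0 smooth and non-muscle, and 1 and 12 skeletal and cardiac. Median centring with thermoneutral 1 left out gave 5 and 1, 2 and 1, and 2 and 0. With cold 2 and thermoneutral 1 both left out the counts were 4 and 25, 1 and 7, and 2 and 14.

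With 1 sample left out at a time, Tpm1 ranged from -1.29 to 1.59 and Tpm2 from -1.47 to 1.37 (0.60 and 0.28 with all samples), both turning to their lowest value without cold 2, and to -1.30 and -1.25 without cold 2 and thermoneutral 1. Myl12a and Tpm3 turned to 0.019 and 0.014 with centring and cold 2 left out, and Myh14 to 0.93 with centring and thermoneutral 1 left out. The cause was not tested.

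The replicate numbers did not pair the samples: deviations of same-numbered samples correlated at -0.00, 0.04 and 0.07. With the replicate block 2 members were higher and 5 lower, smooth and non-muscle members were 0 and 3, skeletal and cardiac members 1 and 1, and over all genes 568 were higher and 3140 lower against 727 and 4097 without it.

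As shares of summed FPKM, skeletal and cardiac members held 0.0217%, 1.84% and 0.0209% in cold 1, 2 and 3 and 0.0519%, 0.0994% and 0.0445% in thermoneutral 1, 2 and 3, in the same order of groups as on scaled counts. Count-based tests were not run because reads could not be recovered. Values under about 20 scaled counts rest on few fragments, which limits Myl3, Tnnc1, Tnni3 and the fast genes in cold 1 and cold 3.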
